A study of Pyronema omphalodes CBS 100304 with 6 samples.

Results

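Trehalose, a disaccharide, and mannitol, a sugar alcohol, are the soluble carbon stores of many fungi, which draw on them for energy and also keep them as protectants under stress. Trehalose-6-phosphate synthase joins UDP-glucose and glucose-6-phosphate, and trehalose-phosphatase removes the phosphate to give trehalose. Trehalases hydrolyze the sugar to glucose, and trehalose phosphorylase, where a fungus has one, splits it with phosphate. Mannitol is made from fructose-6-phosphate by mannitol-1-phosphate 5-dehydrogenase and a phosphatase, and NADP-dependent mannitol dehydrogenase interconverts mannitol and fructose.

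The genes described here are 8 of the 13369 predicted genes of *Pyronema confluens*, a filamentous ascomycete that the labels list as *Pyronema omphalodes*. Of these, 3 were chosen by their values in the same libraries. *PCON_01669* (mannitol-1-phosphate 5-dehydrogenase) and *PCON_03866* (trehalose phosphorylase) are listed by the study among candidate genes selected on the ratio of DD36 to DD24, and *PCON_05926* (trehalose-phosphatase) was named with its ratio known. Their difference between the time points is therefore given as a description and without a test. Standard errors printed for these 3 genes take no account of the choice and do not measure support for a difference. In the study's RT-qPCR over a full time course in darkness, *PCON_01669* and *PCON_03866* were arrhythmic. The other 5 genes were found by the words trehalose or mannitol in the predicted product. They are *PCON_11441* and *PCON_03727*, similar to trehalose-phosphate synthase 1 and to the 106 kDa subunit of that enzyme, and *PCON_08397*, *PCON_02415* and *PCON_12946*, similar to NADP-dependent mannitol dehydrogenases. All functions are predicted from similarity. Of the 8 genes, 6 had enough counts to enter the comparison across 5466 genes, among them 3 of the 5 that were found by words.

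RNA was sequenced from vegetative mycelium of the wild-type strain CBS 100304 after 36 hr in darkness (DD36, the subjective morning) and after 24 hr in darkness (DD24, the subjective evening), with 3 independent biological replicates (a, b and c) of each. All cultures had been in constant light before and were shaken at 25°. They were of about the same age at harvest, and by the study's methods in stationary phase by then. The labels call the medium WPC and the study's methods a minimal medium. In RNA from whole mycelium, less RNA per cell and fewer cells with the RNA cannot be told apart.

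The deposited read counts were far below the numbers of mapped reads that the study lists for these libraries, and the reason was not tested. Read counts summed to between 806459 and 1132608 per library. A single gene model, *PCON_08583*, took 30.7% to 52.2% of them, most in DD24 replicate a, and the TMM factor of that library was 0.728, against 1.02 to 1.13 in the other 5. CPM stands here for counts per 1e+06 counts of the genes tested, scaled by TMM, a factor that matches libraries on the bulk of their genes. A count of 0 allows up to 3 counts, or 2.55 to 4.73 CPM depending on the library, which covers counting error only.

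The gene models lie on 8 different scaffolds of the genome release v01_2, so that none of them neighbors another. *PCON_11441* is on scaffold 604 (115869 to 118482, minus strand) and *PCON_03727* on scaffold 1496 (13089 to 16467, minus strand), each with 4 introns. The model of *PCON_05926* is on scaffold 225 (240773 to 244431, minus strand) and predicts a protein of 930 residues. The same length is predicted for *PCON_03727*, against 503 residues for *PCON_11441*. Only 6 bases separate *PCON_05926* from *PCON_05927*, a mitogen-activated protein kinase gene on the same strand. That neighbor averaged 151 CPM in DD36 and 163 CPM in DD24, with a log2 ratio of -0.11 and an edgeR adjusted p of 0.963. *PCON_03866* is on scaffold 151 (344724 to 347121, plus strand), *PCON_01669* on scaffold 1117 (279865 to 281559, minus strand) and *PCON_08397* on scaffold 382 (5854 to 8127, minus strand). The last of these predicts the shortest protein of the 8, with 197 residues from a model of 8 exons. The models of *PCON_02415* and *PCON_12946* are on scaffolds 1221 and 783. How reads that match several models were counted is not stated, and whether the mannitol dehydrogenase genes share reads was not tested.

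Levels were compared between genes as CPM per kb of the mRNA model, which takes account of length. *PCON_01669*, the enzyme at the entry to mannitol, had a mean of 403 ± 175 CPM per kb (SD, n = 6 libraries) and was the highest of the 8 genes in 6 of 6 libraries. Of the genes tested in the series, 97.3% had a lower level. *PCON_11441* followed at 79.7 ± 14.1 CPM per kb (SD, n = 6). In each library the level of *PCON_01669* was between 3.57 and 7.82 times that of *PCON_11441*.

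The genes of trehalose synthesis stood next to each other in this order. *PCON_03727* averaged 56.6 ± 9.96 CPM per kb and *PCON_05926* 53.1 ± 14.01 CPM per kb (SD, n = 6 for both). *PCON_11441* was above *PCON_03727* in 6 of 6 libraries, with a ratio of 1.41 ± 0.106 in DD36 and 1.41 ± 0.195 in DD24 (SD, n = 3 each). The order of *PCON_03727* and *PCON_05926* changed from library to library, with the first higher in 3 of 6, so that these neighbors did not differ beyond their spread.

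*PCON_03866*, which would break trehalose down, stood lower at 28.2 ± 14.7 CPM per kb (SD, n = 6) and was under *PCON_05926* in 6 of 6 libraries. The neutral trehalase gene *PCON_11825*, which belongs to the genes around the stores described below, was at 32.5 CPM per kb. On the side of mannitol, *PCON_08397* had 12.7 ± 2.75 and *PCON_02415* 10.2 ± 5.88 CPM per kb (SD, n = 6 for both). They did not differ beyond their spread, and *PCON_08397* was the higher of them in 3 of 6 libraries. No read was counted for *PCON_12946* in any library. The order of the 6 tested genes was the same under RLE scaling, with total counts, and in CPM without division by length.

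The synthase gene *PCON_11441* was at 185, 172 and 142 CPM in DD36 replicates a, b and c, against 161, 236 and 189 CPM in DD24 replicates a, b and c. DD24 replicate b was the highest library and DD36 replicate c the lowest, and the time points overlapped. The mean was 166 ± 21.97 CPM in DD36 and 195 ± 38.0 CPM in DD24 (SD, n = 3 each). The log2 ratio of DD36 to DD24 was -0.24 with a standard error of 0.18, and the quasi-likelihood test of edgeR gave an adjusted p of 0.844.

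*PCON_03727*, the longer of the synthase models, was at 179, 157 and 151 CPM in DD36 replicates a, b and c and at 180, 237 and 161 CPM in DD24 replicates a, b and c. DD24 replicate b again stood above the other libraries, which overlapped between the time points. The log2 ratio of DD36 to DD24 was -0.25 with a standard error of 0.17, and edgeR gave an adjusted p of 0.842. Within replicate a the values were all but equal, and within replicate b the log2 ratio of DD36 to DD24 was -0.59.

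*PCON_05926*, for the phosphatase that completes trehalose synthesis, was at 131, 166 and 117 CPM in DD36 replicates a, b and c, against 150, 238 and 160 CPM in DD24 replicates a, b and c. The time points overlapped, since DD36 replicate b was above DD24 replicates a and c. Means were 138 ± 25.3 CPM in DD36 and 182 ± 48.2 CPM in DD24 (SD, n = 3 each). The log2 fold change was -0.42 (standard error 0.20), and the log2 ratio within letters was -0.19, -0.52 and -0.46 for a, b and c.

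The ratio of synthase to phosphatase differed between the time points by less than the SD in DD36 but by more than the SD in DD24. *PCON_11441* relative to *PCON_05926*, both per kb, was 1.63 ± 0.252 in DD36 and 1.44 ± 0.126 in DD24 (SD, n = 3 each). For *PCON_03727* relative to *PCON_05926* the ratio was 1.16 ± 0.217 in DD36 and 1.03 ± 0.110 in DD24 (SD, n = 3 each).

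*PCON_03866*, the phosphorylase gene, had 34, 74 and 33 counts in the DD36 libraries, in the order a, b, c, and 52, 127 and 30 counts in the DD24 libraries. This was 39.4, 62.9 and 30.3 CPM in DD36 and 81.9, 111 and 36.4 CPM in DD24. Replicate b was highest and c lowest at both time points, and DD36 replicate b exceeded DD24 replicate c, so that the time points overlapped. The mean was 44.2 ± 16.8 CPM in DD36 and 76.4 ± 37.6 CPM in DD24 (SD, n = 3 each), with a log2 fold change of -0.80 (standard error 0.43).

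The counts of *PCON_01669* were 372, 563 and 379 in the DD36 libraries, in the order a, b, c, against 520, 1156 and 401 in the DD24 libraries. In CPM this was 431, 479 and 348 in DD36 and 819, 1010.5 and 486 in DD24. The time points did not overlap, but only narrowly, with DD24 replicate c just above DD36 replicate b. With total-count scaling they overlapped, since DD36 reached 539.7 CPM and DD24 started at 503.8 CPM, and they also did when *PCON_08583* and 3 phage-like models were left out of the totals. Such separation with DD36 below was found for 5.87% of the genes tested. Means were 419 ± 66.1 CPM in DD36 and 772 ± 265 CPM in DD24 (SD, n = 3 each), a log2 fold change of -0.88 (standard error 0.24).

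The mannitol dehydrogenase genes were sparsely counted. *PCON_08397* had 23, 24 and 15 counts in DD36 replicates a, b and c and 16, 22 and 18 counts in DD24 replicates a, b and c. In CPM this was 26.6, 20.4 and 13.8 in DD36 and 25.2, 19.2 and 21.8 in DD24, and the time points overlapped. Its mean was 20.3 ± 6.43 CPM in DD36 and 22.1 ± 2.995 CPM in DD24 (SD, n = 3 each). The log2 ratio of DD36 to DD24, -0.12, was smaller than its standard error of 0.31, with an edgeR adjusted p of 0.985. *PCON_02415* had 4, 20 and 9 counts in DD36 and 5, 20 and 4 counts in DD24 (a, b and c for both), too few for the comparison. Its 2 libraries with 20 counts were those of replicate b.

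**Figure D1:**
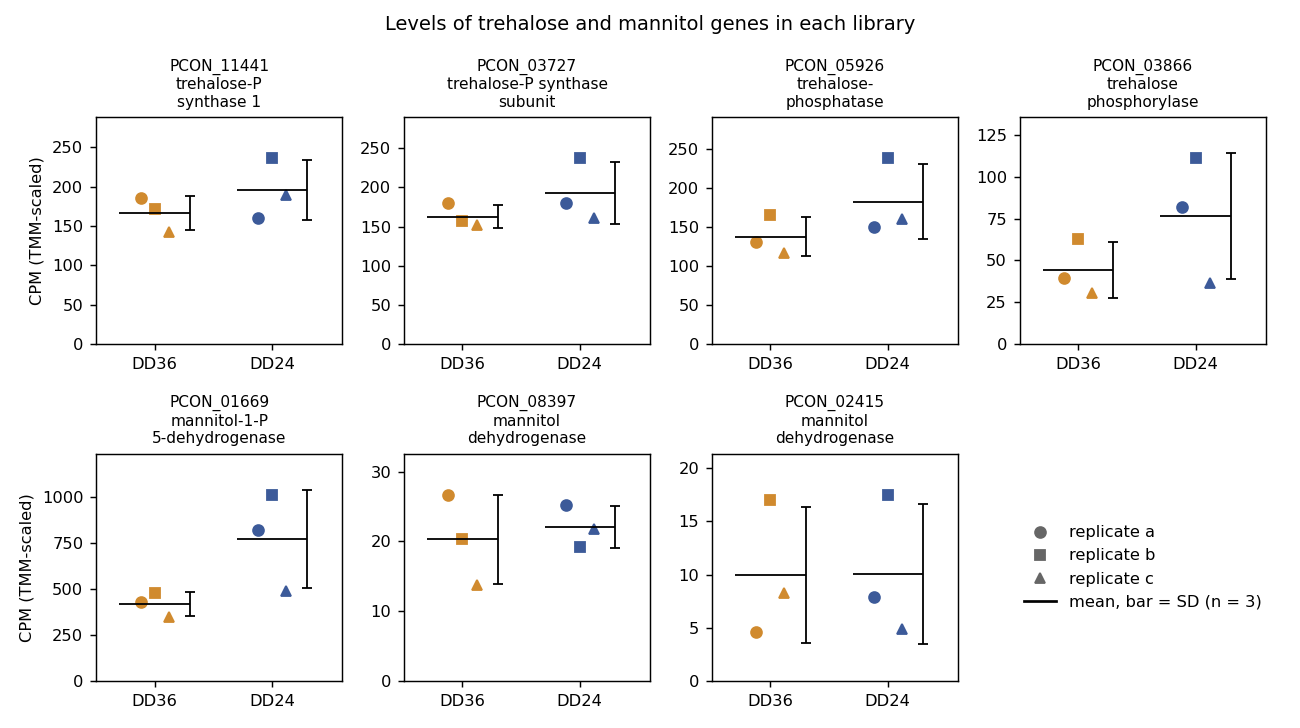
TMM-scaled CPM (y axis, from 0) of the 7 genes with counts in DD36 and DD24, with 1 point per library, the replicate letter as symbol, the mean as a line and the SD as a bar (n = 3). Replicate b is the highest library at both time points for *PCON_05926*, *PCON_03866*, *PCON_01669* and *PCON_02415*, and the time points overlap in every panel but that of *PCON_01669*.

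For the 3 genes found by words the fitted log2 fold change lay between -0.25 and -0.12, with a median of -0.24, where the median of all genes tested was -0.00. With the 3 genes chosen on this ratio, whose sign the choice fixed, 6 of 6 were below 0 and the median was -0.33 (5 of 6 below 0 with total-count scaling, and 3 of 6 with total counts and the replicate letter as a block). By edgeR 0 of these 3 passed at an adjusted p under 0.05 and 0 of 3 had an unadjusted p under 0.05. Of all genes tested 0.00% passed, and 6.99% had an unadjusted p under 0.05 (130 genes higher and 252 lower in DD36). By limma-voom 0 genes passed, and by DESeq2 0 were higher and 19 lower, none of them among the 3, where *PCON_08397* was given no adjusted p. With a block for the letter 1.30% of all genes passed, 5 higher and 66 lower, and again none of the 3 (adjusted p = 0.586 for *PCON_03727*, 0.600 for *PCON_11441* and 0.921 for *PCON_08397* from edgeR with the block). The block gave log2 fold changes of -0.84 for *PCON_01669*, -0.76 for *PCON_03866* and -0.40 for *PCON_05926*, again as a description of genes chosen on this ratio.

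Directions were relative to the scaling. With total counts in place of TMM the median of all genes moved to 0.23 on the log2 scale. *PCON_08397* came to 0.11, *PCON_11441* and *PCON_03727* to -0.03 each and *PCON_05926* to -0.20. When *PCON_08583* and 3 phage-like models were left out of the totals, the median of all genes was 0.07 and *PCON_08397* was at -0.04. All 6, the 3 chosen ones included, were below the median of all genes under each scaling run. DD36 was under DD24 within each letter for 4 of 6 genes, *PCON_01669*, *PCON_03866*, *PCON_05926* and *PCON_03727*, against 16.1% of all genes tested. Of these, 3 were chosen on this contrast and *PCON_03727* was lower in pair a by less than the second decimal.

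**Figure D2:**
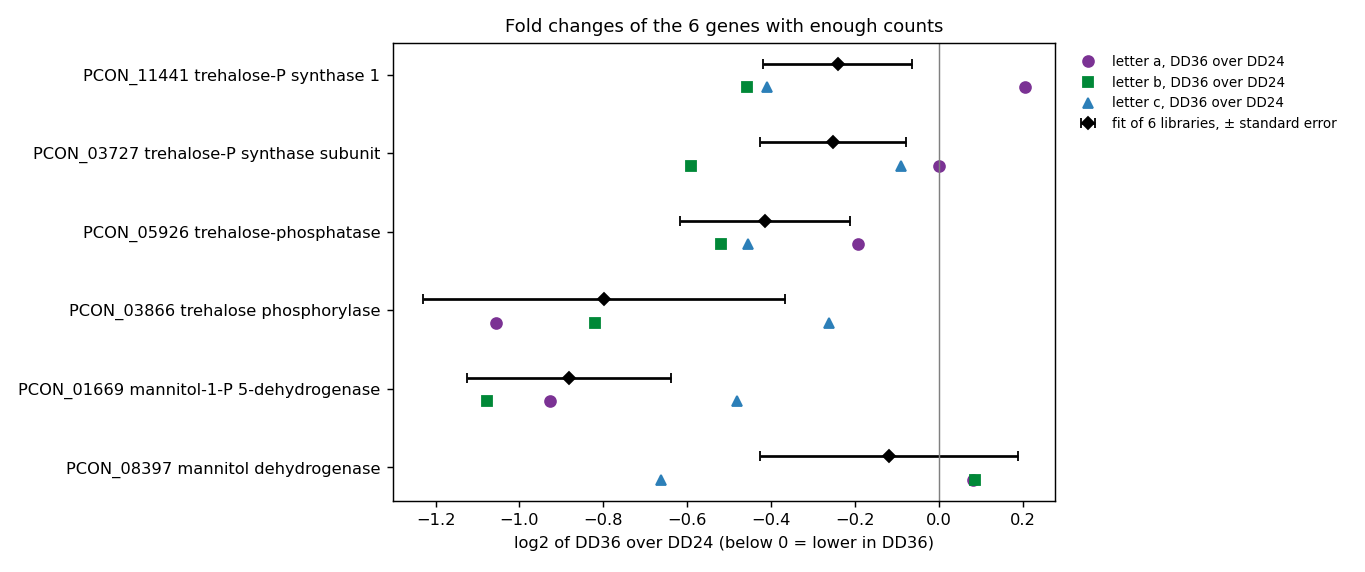
Log2 ratio of DD36 to DD24 (x axis) for the 6 genes with enough counts, with the fit over 6 libraries as a diamond with its standard error and the ratio within each replicate letter as a colored symbol. For *PCON_01669*, *PCON_03866* and *PCON_05926* the standard error takes no account of their choice on this ratio. With TMM scaling all diamonds lie below 0 (5 of 6 with total counts), from -0.88 for *PCON_01669* to -0.12 for *PCON_08397*, and the letters spread widely, as for *PCON_11441*, at 0.21 in a and -0.46 in b.

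The size of the difference depended on DD24 replicate b. This library had the largest sum of counts, and in it *PCON_11441*, *PCON_03727*, *PCON_05926*, *PCON_03866* and *PCON_01669* were each at their highest. When it was left out, the log2 fold change was -0.37 for *PCON_03866*, -0.17 for *PCON_05926*, -0.08 for *PCON_11441* and -0.07 for *PCON_03727*. That of *PCON_01669* was -0.64. Leaving out DD24 replicate c moved the values the other way, to -1.13 for both *PCON_01669* and *PCON_03866*. Without DD24 replicate a, the library with the largest share of *PCON_08583*, they were -0.84 and -0.77 for these genes, -0.54 for *PCON_05926* and -0.36 for *PCON_11441*. *PCON_11441* was at -0.14 without DD36 replicate c. *PCON_08397* moved between -0.35 without DD36 replicate a and 0.10 without DD36 replicate c.

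**Figure D3:**
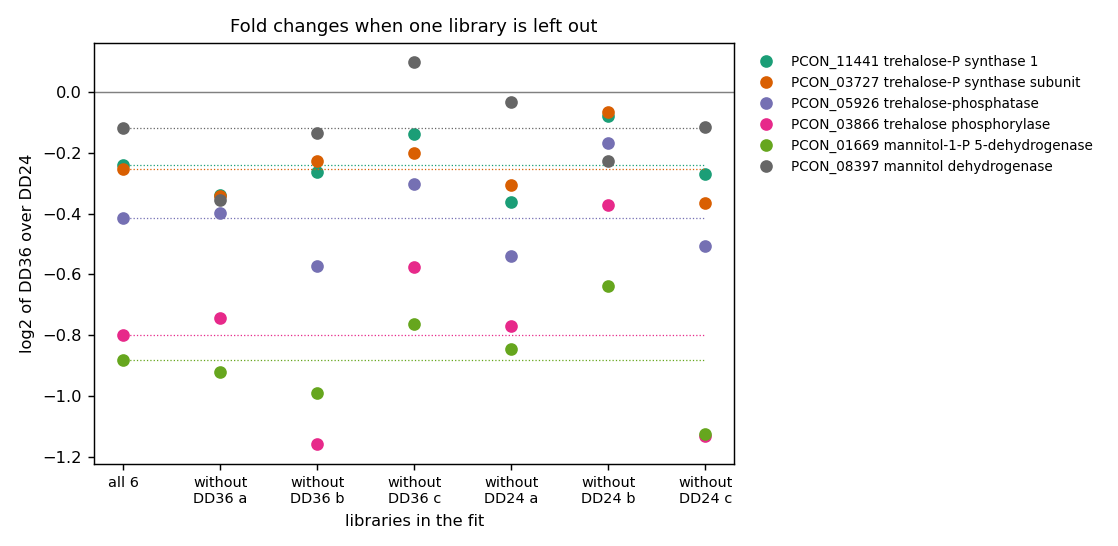
Log2 ratio of DD36 to DD24 (y axis) of the 6 genes fitted with all libraries and without each library in turn (x axis), with the value of all libraries as a dotted line. Without DD24 replicate b, 5 of the 6 genes move toward 0 and *PCON_03866* lies at -0.37, and only *PCON_08397* crosses 0, without DD36 replicate c.

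Several of these genes varied alike with the replicate letter. In *PCON_01669*, *PCON_03866* and *PCON_05926*, 3 of the 6 genes tested, replicate b was the highest of its time point in DD36 and in DD24. This held for 13.6% of all genes tested. The pattern was noticed after the values were seen, and the sources used here do not say what the cultures of a letter had in common. In *PCON_11441*, *PCON_03727* and *PCON_08397*, replicate a was the highest in DD36.

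To see which other genes had the pattern of the 3 genes chosen on their ratio, log2 CPM values were centered on each gene's mean and compared over the 6 libraries by the root-mean-square difference, with 4149 genes as candidates. This likeness includes the difference between the time points on which the genes were chosen. Closest to *PCON_01669* were *PCON_08603* (a gene of unknown function, difference 0.125), *PCON_07009* (similar to the uncharacterized yeast protein YEL023C, 0.126) and *PCON_02803* (similar to an uncharacterized fission yeast protein, 0.148), where the median candidate was at 0.585. *PCON_03866* was closest to *PCON_08653*, of unknown function (0.126), followed by *PCON_02701* (0.157) and *PCON_09150* (0.185), both similar to hypothetical proteins of *Tuber melanosporum*. The median candidate was at 0.706. For *PCON_05926* the closest genes were *PCON_12036* (unknown function, 0.0597), *PCON_06143* (a patatin-like phospholipase, 0.0666) and *PCON_06679* (a rhomboid protein, 0.0678), with a median of 0.396. Both *PCON_08603* and *PCON_08653* are on scaffold 391.

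Likeness among the genes of the stores themselves was uneven. *PCON_01669* was the candidate at rank 10 in likeness to *PCON_03866* (difference 0.253), and *PCON_03866* that at rank 72 in likeness to *PCON_01669*. Both genes were chosen for being lower in DD36, which this measure includes, so that their nearness was in part fixed by the choice. *PCON_05926* was nearer to the synthase genes, with *PCON_11441* at rank 61 (0.171) and *PCON_03727* at rank 147 (0.203), than to *PCON_01669* at rank 1176 and *PCON_03866* at rank 2775. The measure also follows the size of the log2 fold change, -0.42 for *PCON_05926*, -0.24 and -0.25 for the synthase genes, and -0.88 and -0.80 for the last 2. Ranks among these genes by deviations within time points are not given here.

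**Figure D4:**
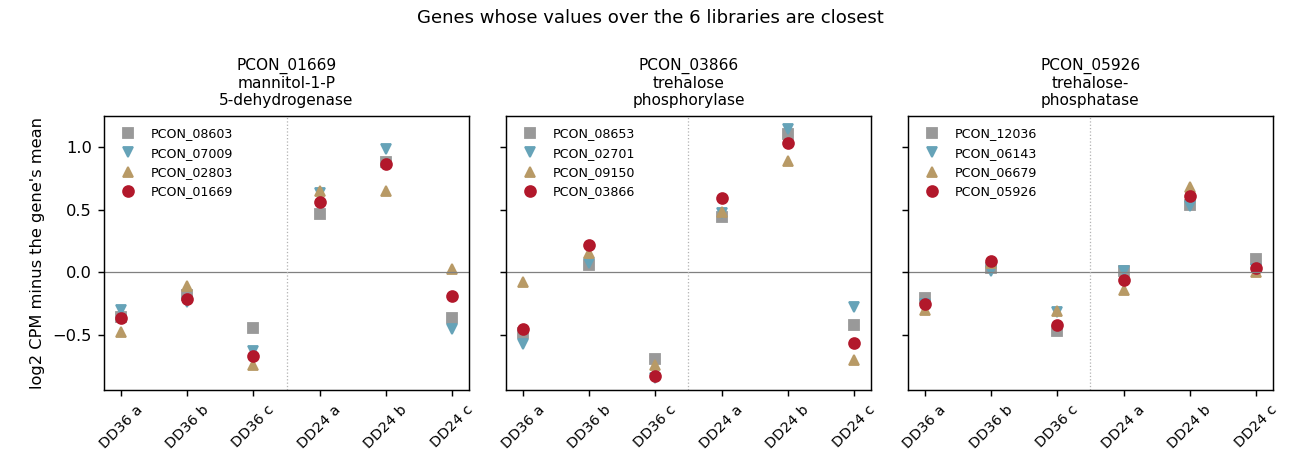
Log2 CPM minus the gene's mean (y axis) in each library (x axis) for *PCON_01669*, *PCON_03866* and *PCON_05926* (red) and the 3 genes closest to each. DD24 replicate b is the highest point in each panel, and DD24 replicate c lies between the lowest and the highest DD36 library for *PCON_03866* and its neighbors in pattern.

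Around the stores, 6 further lists of genes were read from the product descriptions. By edgeR 0 of their 44 tested genes passed at an adjusted p under 0.05, with or without the replicate block, and 0 passed by limma-voom or by DESeq2, which gave no adjusted p for 14 of them. An unadjusted p under 0.05 was found for 1 of the 44 without the block and for 6 of the 44 with it, 2 higher and 4 lower in DD36, against 11.6% of all genes tested with the block. The direction in each list was relative to the scaling, but the number of genes above and below the median of all genes was the same with RLE and with both kinds of total counts. The trehalase genes were both tested. *PCON_11825*, for neutral trehalase, was at 85.7, 97.8 and 91.8 CPM in DD36 replicates a, b and c, against 105.5, 116 and 109 CPM in DD24 replicates a, b and c. The time points did not overlap, as in 5.87% of all genes tested with DD36 below, but with total-count scaling they did. With RLE, and with *PCON_08583* and the phage-like models left out of the totals, they did not overlap. The log2 fold change was -0.27 (adjusted p = 0.781 from edgeR). *PCON_13575*, for the acid trehalase, averaged 36.3 ± 11.7 CPM in DD36 and 39.9 ± 18.8 CPM in DD24 (SD, n = 3 each).

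Glycogen is another carbohydrate store of fungi, and its 6 genes were all tested. The median level was 54.8 CPM per kb for the 6 tested genes of trehalose and mannitol and 231 CPM per kb for those of glycogen, a difference that was not tested. *PCON_04451*, for the primer protein glycogenin, was highest at 512 CPM per kb. Log2 fold changes were between -0.06 and 0.25, with 3 above and 3 below 0 (6 above with total-count scaling) and a median of 0.01. *PCON_02723*, another glycogenin gene, had the smallest p, at 0.25 on the log2 scale (adjusted p = 0.918, edgeR).

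The enzymes that make and use the hexose phosphates and UDP-glucose, from which both stores are drawn, were matched by 11 genes, 9 of them tested. Their median log2 fold change was -0.13, with 7 below and 2 above 0, and 1 gene had an unadjusted p under 0.05 without the block. This was *PCON_10168*, for fructose-1,6-bisphosphatase, the enzyme of gluconeogenesis that supplies fructose-6-phosphate. It was at 139, 153 and 160 CPM in DD36 replicates a, b and c and at 197, 203 and 194 CPM in DD24 replicates a, b and c. The log2 ratio was -0.39 with a standard error of 0.15 (unadjusted p = 0.0181, adjusted p = 0.630, edgeR). Over 5 alternatives the adjusted p was 0.241 to 0.996 (edgeR, DESeq2 or limma-voom), lowest in edgeR with the replicate block. With total-count scaling the time points overlapped and the log2 ratio was -0.16. They did not overlap with TMM, as in 5.87% of all genes tested with DD36 below. Nor did they with RLE, or with *PCON_08583* and the phage-like models left out of the totals. *PCON_14282*, similar to a phosphoglucomutase, was at -0.51 (adjusted p = 0.724 from edgeR, and 0.409 from edgeR with the replicate block). *PCON_10830*, for the enzyme that makes UDP-glucose, was the most abundant of the list at 581 CPM per kb and had a log2 fold change of -0.05. With total-count scaling 6 of the 9 were above 0, and 7 of 9 were still under the median of all genes.

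Fructose-6-phosphate also leads to GDP-mannose, the donor of mannose for glycoproteins and the cell wall. Of 5 genes of this route 4 were tested, and 4 of 4 were above 0 under each scaling run. The median was 0.22 with TMM. *PCON_13956*, for mannose-1-phosphate guanyltransferase, was at 163, 179 and 218 CPM in DD36 replicates a, b and c and 162, 140 and 144 CPM in DD24 replicates a, b and c. Its log2 fold change was 0.33 (adjusted p = 0.726 from edgeR, and 0.393 from edgeR with the replicate block). The narrow separation of the time points was lost with RLE scaling and kept with both kinds of total counts. *PCON_12512*, similar to another enzyme of this kind, was at 0.29 on the log2 scale (adjusted p = 0.780, edgeR). Its time points did not overlap with TMM, RLE or either kind of total counts. The share of all genes separated with DD36 above is not given here, so these separations have no background. The difference between this list and the genes of trehalose and mannitol was not tested.

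Among 18 genes matched by words for other polyols and glycerol, 12 were tested, with 10 above and 2 below 0 (11 and 1 with total-count scaling) and a median of 0.10. The match was loose, so that these numbers are not of polyol and glycerol genes alone. It took in *PCON_01301*, similar to a diacylglycerol kinase, and the reductase genes *PCON_07196*, *PCON_07205*, *PCON_11423* and *PCON_13466*, whose product descriptions name no polyol. *PCON_02039*, for L-xylulose reductase, a step between pentoses and xylitol, was the most abundant at 292 CPM per kb. It was at 402, 309 and 712 CPM in DD36 replicates a, b and c and 255, 251 and 566 CPM in DD24 replicates a, b and c. The log2 fold change was 0.41 with a standard error of 0.45 (adjusted p = 0.932 from edgeR). With the replicate block it was 0.42 with a standard error of 0.13 (unadjusted p = 0.0062, adjusted p = 0.195, edgeR). Replicate c was the highest library at both time points, where *PCON_03866* and *PCON_01669* were at the lowest of the time point. *PCON_05905*, for the NAD-dependent glycerol-3-phosphate dehydrogenase that leads to glycerol, was at -0.22 (adjusted p = 0.918 from edgeR).

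Signaling by cAMP and by stress-activated kinases acts on trehalase and on osmolytes in yeast. Of 13 genes of this list 11 were tested, with 6 above and 5 below 0 (10 and 1 with total-count scaling) and a median of 0.04. *PCON_06175*, similar to a protein that binds mitogen-activated protein kinases, was at -0.37 on the log2 scale (adjusted p = 0.745, edgeR, and 0.377, edgeR with the replicate block). *PCON_05279*, for a catalytic subunit of protein kinase A, was at 0.40 (adjusted p = 0.865 from edgeR). *PCON_03299*, a 14-3-3 protein and the most abundant of the list at 422 CPM per kb, was at 756 ± 42.4 CPM in DD36 and 761 ± 17.8 CPM in DD24 (SD, n = 3 each).

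**Figure D5:**
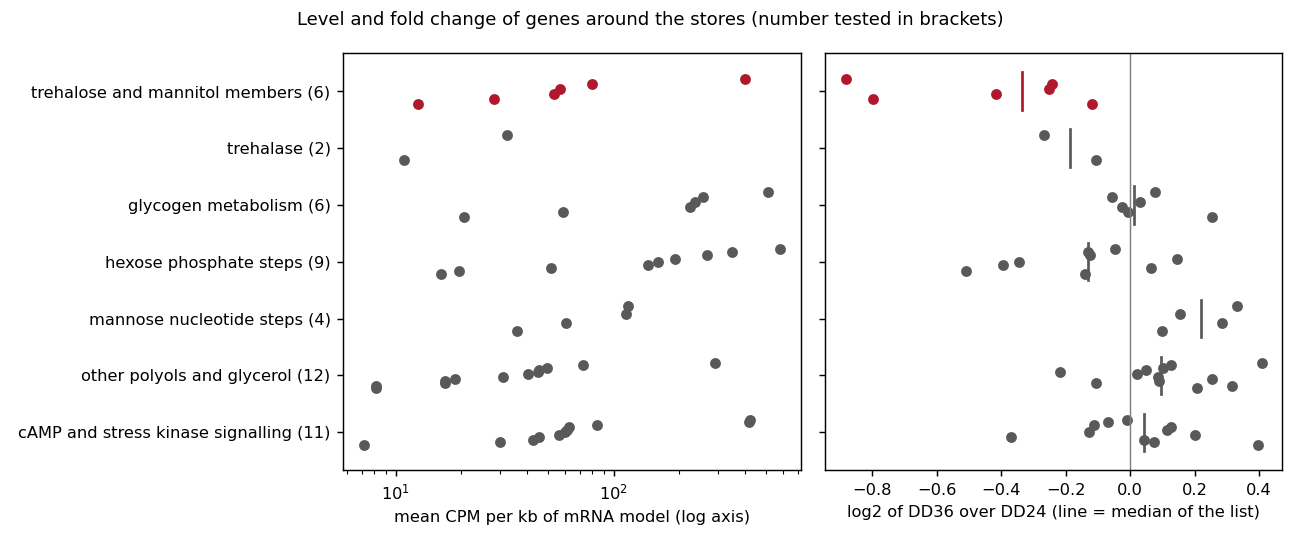
Mean CPM per kb (left, log axis) and log2 ratio of DD36 to DD24 (right, with the median of each list as a line) of the tested genes of trehalose and mannitol (red) and of the 6 lists around them (gray). The median is -0.33 for the 6 genes of trehalose and mannitol, of which 3 were chosen on this ratio, and -0.24 for the 3 found by words. It is 0.01 for glycogen and 0.22 for the route to GDP-mannose, and no difference between lists was tested.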

How the data were processed

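The authors mapped trimmed reads of 6 libraries to genome v01_2 and deposited unnormalized read counts per predicted gene, beside the length of each mRNA model. The processing notes name CASAVA 1.8.2 and DESeq. For the aligner, counter, strand setting and handling of multiply matching reads, the sources used here give nothing. The deposited ratios, base means and p-values were the authors' own comparisons and were left aside. Each count column was assigned to its library by the sample title.

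The fit used edgeR 4.0.16 in R 4.3.3, with filterByExpr, TMM and a robust quasi-likelihood model of the time point over 5466 genes, and Benjamini-Hochberg adjustment at a threshold of 0.05. It was also run on simulated data that held no effect of the replicate letter, with the outcome not given here. Standard errors came from the fold change and the F statistic. Alternatives were DESeq2 1.42.0, limma 3.58.1 (voom), RLE and total-count scaling, other filters, a block for the replicate letter and leaving out libraries. The block fits without a pair were chosen after seeing the data. Libraries of one letter deviated together (correlations of 0.217, 0.258 and 0.305 for a, b and c, each over the 0.1 required). The letters were therefore taken as pairs in the fit with the block and in the ratios within letters. The main fit did not use this pairing, because the study's methods name no block. The fit with the block is given for the trehalose and mannitol genes and for the numbers of genes passing. It is also given for named genes of the further lists with an unadjusted p under 0.05 by edgeR with the block. All other values come from the fit without it. No library was a copy of another, since counts of any pair within a time point differed by 3.36 to 14.1 in chi-square over degrees of freedom.

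The genes and lists were chosen with earlier results of these data known. All trehalose and mannitol genes are described. Of each further list the 2 genes with the smallest p and the most abundant one per kb are named, and for 3 genes the 3 closest in pattern among those with a mean of at least 20 counts (log2 of CPM + 0.5). The nearest model on each side was looked up, and 1 is named for its distance.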

Additional observations from a re-analysis of the deposited data

How the results depend on the processing

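The 3 genes found by words stayed without a call under every alternative run, and over the alternatives planned their adjusted p ranged from 0.512 to 0.999 (*PCON_03727*), 0.882 to 0.998 (*PCON_08397*) and 0.600 to 0.999 (*PCON_11441*), from edgeR, DESeq2 or limma-voom. In the block fit without pair a, added after seeing the data, edgeR gave lower values, 0.199 for *PCON_03727* at a log2 fold change of -0.37, 0.876 for *PCON_08397* and 0.0747 for *PCON_11441* at -0.44. Over the 15 alternatives planned the log2 fold change ranged from -1.13 to -0.59 for *PCON_01669*, from -1.16 to -0.37 for *PCON_03866* and from -0.57 to -0.16 for *PCON_05926*. The direction turned for *PCON_08397* with total-count scaling (0.11), with the replicate block and total counts (0.11), with the block without pair c (0.083) and without DD36 replicate c, where the range over libraries left out was -0.35 to 0.099, and to just above 0 with the block and total counts for *PCON_11441* (0.0018) and *PCON_03727* (0.00030). The cause was not tested. The median of all genes was at 0.23 with total counts and at 0.24 with total counts and the block. Without DD36 replicate c it was at 0.00038, and with the block without pair c at 0.0053. The number of genes called in the series was 0 as fitted, 53 without the filter on low counts, 71 with the replicate block, 72 with the block and total counts and 19 by DESeq2. It was 0 to 20 when a library was left out, and with the block 191 without pair a, 2 without pair b and 147 without pair c. None of the 3 closest genes of *PCON_01669* and 1 each of those of *PCON_03866* and *PCON_05926* were also closest by deviations within time points. Low deposited counts limit *PCON_08397*, with 15 to 24 counts per library, and kept *PCON_02415*, with 4 to 20, and *PCON_12946*, with 0, out of the comparison.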
